A study of Capra hircus with 4 samples.

Results

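The levels of 10 genes linked to the mesenchymal state were followed in stem cells grown from the secondary hair follicles, which make the fine undercoat, of the cashmere goat, Capra hircus. They are the transcription factors SNAI1, SNAI2, TWIST1, TWIST2, ZEB1, ZEB2 and PRRX1, the intermediate filament protein vimentin (VIM), and the secreted matrix proteins tenascin C (TNC) and SPARC. The genes were taken by symbol, and each of the 10 had 1 row among the 20326 genes of every library. The list of symbols was selected on earlier results for the same April and October values, so the phase values of these genes are given as a description without a test. The cells were isolated from dorsal skin and cultured, and all 4 libraries share that origin. The early anagen group, sampled in April, and the mid anagen group, sampled in October, each hold 1 female and 1 male library. No treatment, genotype, breed or age is given in the labels. The phase, the month and the animals sampled cannot be told apart in this design, and the labels do not say whether libraries of 1 phase were cultured together. Where 2 values are given for a phase, the female library comes first.

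Epithelial-mesenchymal transition is the programme by which epithelial cells loosen their junctions, lose apical-basal polarity and take on the shape and motility of mesenchymal cells. The SNAI and ZEB zinc finger proteins and the TWIST basic helix-loop-helix proteins bind E-box sequences and are known for repressing epithelial genes such as CDH1, which encodes E-cadherin. In skin, SNAI2 is also known as a factor of basal and migrating keratinocytes, while VIM, PRRX1 and TWIST1 are typical of dermal mesenchyme, TNC is laid down around the follicle bulge, and SPARC is a collagen-binding protein made by many cells.

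All values are deposited abundances per gene, normalised for length, so levels may be compared between genes of 1 library. How they were scaled between libraries is not given in the labels. The library totals ran from 844960 to 1186966 and were lower in both mid anagen libraries, and rescaling to a common total moves the median log2 difference of all tested genes from 0.01 to 0.32. Genes at an abundance of 1 or more numbered 12040 to 12458 per library. The depth in reads is unknown. No counting interval is therefore given, and the precision of values below 1 cannot be stated. Keratin 14 (KRT14), the basal keratinocyte keratin, was at 8956 to 23511, and of 14 hair follicle stem cell markers 13 were found and 11 tested, with SOX9 at 82.5 to 171 and CD34 and LGR6 under 1 in all libraries. In bulk RNA, fewer cells of a type and less RNA per cell cannot be told apart.

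Most of the 10 genes had higher values at mid anagen, and they differed widely in level. For 9 of them both mid anagen libraries lay above both early anagen libraries, and for SNAI2 the groups overlapped. Of the 17322 genes above 0 in any library, 30.0% had both mid anagen values above both early ones and 25.9% had both below. Differences were tested over genes with an abundance of at least 1 in at least 2 libraries, and 6 of the 10 were among these 12486 genes. SNAI1, TWIST1, ZEB1 and ZEB2 were not, and PRRX1 passed only through its mid anagen values, which fixed its direction. Nothing is read from the count of 9, because the genes were chosen with this contrast known, and no call between phases is given for them.

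**Figure D1:**
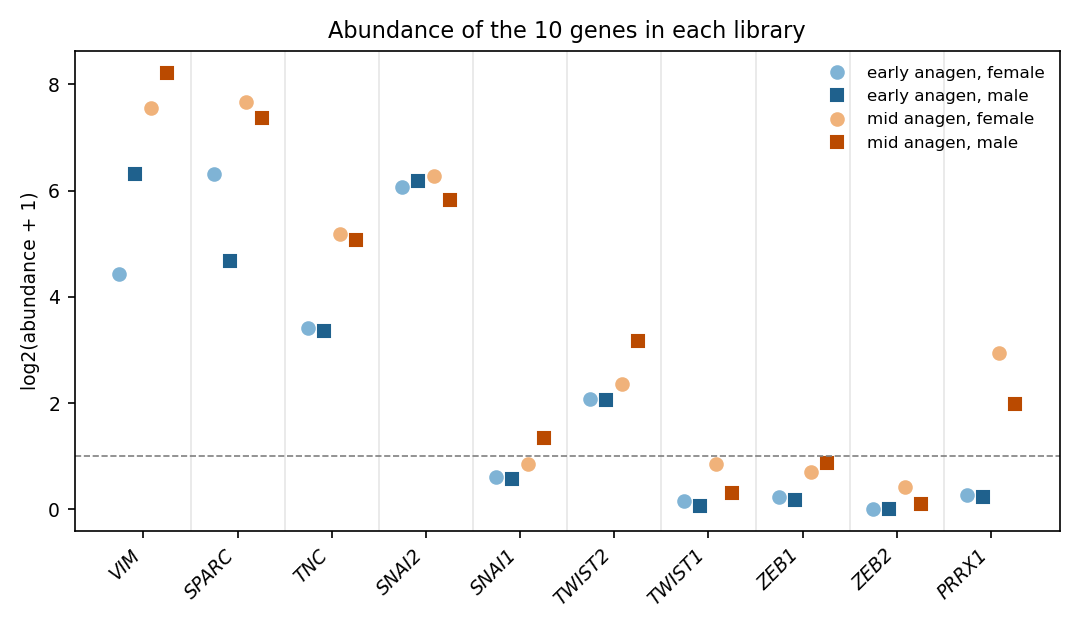
Abundance of each gene in each library as log2(abundance + 1), with circles for female and squares for male libraries and blue for early and orange for mid anagen. The dashed line marks an abundance of 1, and SNAI2 is the gene whose 4 libraries lie together near 6, while SNAI1, TWIST1, ZEB1 and ZEB2 lie near or under the line.

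VIM (GeneID 102182515), the main intermediate filament of mesenchymal cells, was at 20.6 and 78.5 at early anagen and at 187 and 298 at mid anagen. The highest early value was thus below both mid values, but the early libraries stood 3.81-fold apart. The phase means were 49.5 ± 41.0 and 243 ± 78.2 (SD, n = 2). On the log2(value + 1) scale, used for all log2 differences here, mid minus early was 2.52 (SE 0.62). Every SE given is from limma, which draws a gene's variance toward a trend over all tested genes. The SD of VIM's own libraries on this scale was 1.33 at early and 0.471 at mid anagen. It was 3.12 between the female libraries and 1.91 between the male ones. Without the early female library the difference was 1.58 and without the early male library 3.46. VIM was above 71.4% and 90.4% of all genes at early anagen and above 97.1% and 98.2% at mid anagen. Its gap between the early libraries was larger than that of 99.7% of tested genes. The ratio of KRT14 to VIM was 1000.0 and 299 at early anagen and 51.3 and 30.1 at mid anagen.

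SPARC (GeneID 100860800), a secreted glycoprotein that binds collagen and modulates cell-matrix contact, was at 78.2 and 24.5 at early anagen and at 203 and 164 at mid anagen. Here the early female library was the higher one, the opposite of VIM, and again the groups did not overlap. The phase means were 51.3 ± 37.9 and 183 ± 27.5 (SD, n = 2), and the log2 difference was 2.03 (SE 0.52). Without the early male library it was 1.21. The early gap, 3.19-fold, exceeded that of 99.4% of tested genes, while at mid anagen the libraries differed 1.24-fold. The ratio of VIM to SPARC was therefore 0.263 and 3.20 at early anagen and 0.923 and 1.82 at mid anagen.

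TNC (GeneID 102179198), a large matrix glycoprotein that weakens cell adhesion, was the most even of the matrix and filament genes. It was at 9.66 and 9.28 at early anagen and at 35.2 and 32.8 at mid anagen. Libraries of 1 phase almost coincided, and the phases lay far apart. The means were 9.47 ± 0.266 and 34.0 ± 1.73 (SD, n = 2), and the log2 difference was 1.74 (SE 0.14), with 1.76 in the female and 1.72 in the male pair. VIM and SPARC had larger mean differences than TNC and larger standard errors.

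**Figure D2:**
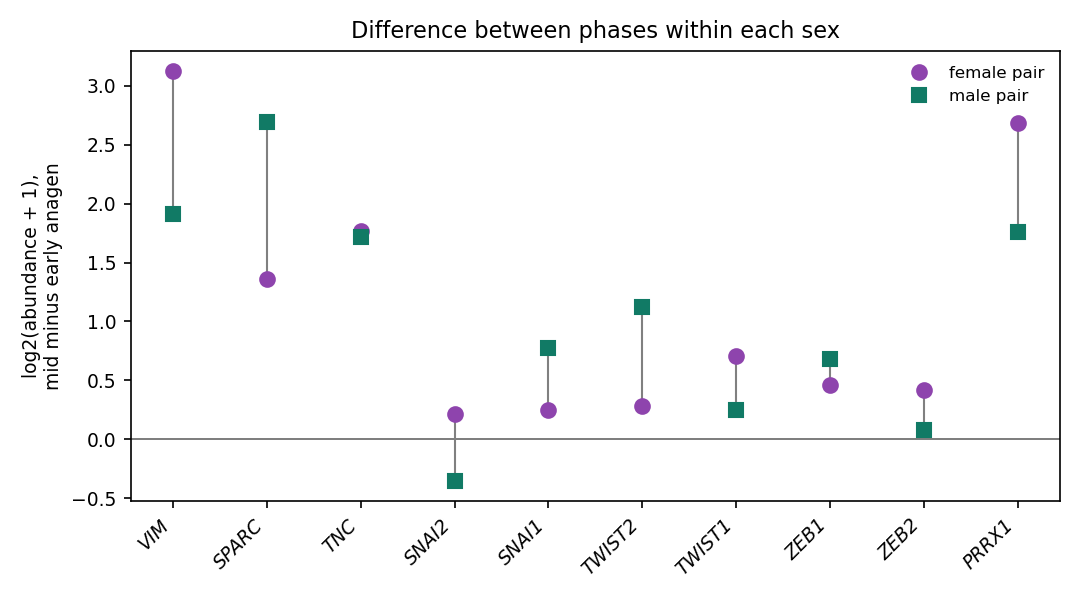
Mid minus early anagen difference in log2(abundance + 1) for each gene, in the female pair (circles) and the male pair (squares). The points of TNC almost coincide at 1.76 and 1.72, those of VIM, SPARC and PRRX1 lie apart, and those of SNAI2 lie on either side of 0.

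SNAI2 (GeneID 102178744), also called Slug, was by far the most abundant of the 7 transcription factors. It was at 66.0 and 71.2 at early anagen and at 76.7 and 55.6 at mid anagen. The mid female value was the highest and the mid male value the lowest of the 4, so the groups overlapped and the pairs moved in opposite directions (log2 0.21 for females and -0.35 for males). The mean log2 difference was -0.07 (SE 0.20), under its standard error. Rescaling each library to a common total turned the sign, to 0.27. The rescaled SNAI2 values were 61.8 and 60.0 at early and 82.2 and 65.8 at mid anagen, where the groups did not overlap. Without the mid male library the difference as deposited was 0.16.

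SNAI1 (GeneID 102172917), the other SNAI factor, was at 0.522 and 0.479 at early anagen and at 0.808 and 1.53 at mid anagen. Only the mid male library passed 1. SNAI2 was 127 and 149 times as abundant as SNAI1 at early anagen, and 94.9 and 36.4 times at mid anagen. The SNAI family signal in these cultures was thus nearly all SNAI2 in every library.

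TWIST2 (GeneID 102181648), also called DERMO1 and known from dermal precursors, was the second most abundant factor at early anagen. It was at 3.20 and 3.16 at early anagen and at 4.10 and 8.05 at mid anagen. The mid male library stood apart from the other 3, and the log2 difference of 0.70 (SE 0.30) was 0.28 for females and 1.12 for males. Without the mid male library it was 0.29 and without the mid female one 1.11. TWIST1 (GeneID 102182849), its close relative, was at 0.116 and 0.0426 early and at 0.818 and 0.240 at mid anagen, below 1 throughout. Among mid anagen libraries TWIST2 was higher in the male and TWIST1 in the female one. The ratio of TWIST2 to TWIST1 ran from 5.02 in the mid female to 74.3 in the early male library.

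ZEB1 (GeneID 106502734) was at 0.174 and 0.134 at early anagen and at 0.619 and 0.822 at mid anagen. ZEB2 (GeneID 102190273) was listed at 0 and 0.0104 at early anagen and was at 0.336 and 0.0687 at mid anagen. Both ZEB factors, strong repressors of epithelial genes, stayed below 1 in all 4 libraries. No fold is given for ZEB2 in the female pair because its early value is 0.

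PRRX1 (GeneID 102190342), a homeobox factor of limb and dermal mesenchyme, was at 0.201 and 0.170 at early anagen and at 6.70 and 2.96 at mid anagen. The mid female library was 2.26 times the mid male one, and both were far above the early values. The abundance ratio of mid to early anagen was 33.3 in the female and 17.5 in the male pair, the highest of the genes with a ratio in both pairs. The log2 difference was 2.22 (SE 0.35), and depends on the pseudocount: it was 4.00 with 0.1 and 0.90 with 5 added to the values.

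The order of the levels held in part across libraries. VIM, SPARC and SNAI2 took the top 3 places in all 4 libraries, with SPARC first in both female and VIM first in both male libraries, TNC was always the fourth and ZEB2 always last. SPARC, VIM and SNAI2 at early anagen did not differ beyond the spread of VIM and SPARC between the 2 libraries. PRRX1 was seventh at early anagen and above SNAI1 in both mid anagen libraries. SNAI2 made up 94.0% and 94.7% of the summed abundance of the 7 factors at early anagen, and 85.1% and 80.3% at mid anagen. The other 6 factors summed to 4.21 and 4.00 at early and to 13.4 and 13.7 at mid anagen, mostly TWIST2 and, at mid anagen, PRRX1. The sum over all 7, at 69.2 to 90.1, overlapped between phases.

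The choice of genes did not rest on the difference between sexes, which was tested in a fit with phase and sex as terms. That fit leaves 1 residual degree of freedom. VIM was higher in the male than in the female library of both phases, by 1.27 on the log2 scale (SE 0.29, limma adjusted p = 0.179). SPARC was higher in the female library of both phases, with male minus female at -0.97 (SE 0.31, limma adjusted p = 0.334). Neither passed. For TNC, SNAI2, TWIST2 and PRRX1 the difference was -0.08, -0.17, 0.41 and -0.50, with SE of 0.14 to 0.26. In limma 0 of the 6 tested genes were called between sexes, with 2 at an unadjusted p under 0.05. Over all tested genes 0.144% were called and 11.0% had an unadjusted p under 0.05. After rescaling to a common total limma called both VIM (adjusted p = 2.6e-06) and SPARC (adjusted p = 0.00107). With 1 residual degree of freedom per gene, such p-values rest on variance that limma shares over all tested genes. They do not measure how alike the sex difference was in the 2 phases. As deposited, male minus female for VIM was 1.88 at early and 0.67 at mid anagen, and for SPARC -1.63 and -0.31. In the other settings limma called neither, with an adjusted p of 0.111 to 1.000 for VIM and of 0.258 to 1.000 for SPARC. Each sex has 1 library per phase, so sex and animal cannot be told apart.

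Other genes of the transition were counted from lists that do not hold the 10, in limma with phase as the only term and Benjamini-Hochberg adjustment over all tested genes. Of all tested genes 0.224% were called higher and 0.0801% lower at mid anagen, 0.304% in either direction, and 27.9% had an unadjusted p under 0.05. Of 46 mesenchymal effector genes, the structural and matrix proteins of migrating mesenchymal cells, 39 were tested, 4 were called higher at mid anagen, 0 fell and 35 did not pass. Those called were FN1, BGN and COL5A1, and FBN1, whose direction was fixed because it passed the filter only through mid anagen. FN1 and BGN did not reach 1 in both early libraries, so they too needed a mid anagen value to pass. FN1, fibronectin, went from 0.247 and 1.10 at early anagen to 92.0 and 61.7 (log2 difference 5.56, limma adjusted p = 0.0245). COL5A1, a collagen V chain, went from 3.49 and 2.76 to 16.1 and 18.4 (log2 difference 2.15, limma adjusted p = 0.0323). BGN, biglycan, went from 1.58 and 0.362 to 35.5 and 20.5 (log2 difference 3.90, limma adjusted p = 0.0431). FBN1, fibrillin 1, went from 0.125 and 0.133 to 8.48 and 5.86 (log2 difference 2.84, limma adjusted p = 0.0323). The median log2 difference was 1.01, against 0.01 over all tested genes. In this list 11 genes passed the filter only through mid anagen, and without them the median over 28 genes was 0.54. Those 28 still include genes such as FN1 and BGN that needed a mid anagen value to pass. Limma called 0 of the list without the early female library, without the early male library and without the filter on low values (24, 23 and 26 at an unadjusted p under 0.05). It called 15 without the mid female and 18 without the mid male library, 22 after rescaling to a common total and 23 with sex as a second term, all higher. CDH2, N-cadherin, singled out with its values in view, was at 0.0893 and 0.0521 early and at 0.819 and 1.69 at mid anagen and was not tested. ACTA2, the smooth muscle actin of contractile cells, also chosen with its values in view, overlapped between phases, at 51.0 and 38.5 early and 34.0 and 52.4 at mid anagen.

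Epithelial genes were present at both phases, with at least 40 of 41 at an abundance of 1 or more in every library. Of the list 40 were tested, and limma called 0, with 5 at an unadjusted p under 0.05. Their median log2 difference was 0.07, 14 had both mid anagen values above both early ones and 6 had both below. Over all tested genes 31.5% lay above and 30.9% below in this sense. The genes with the smallest p were CLDN1, KLF4, GRHL1 and KRT14. CLDN1, a tight junction claudin, was at 25.1 and 54.9 early and at 75.0 and 134 at mid anagen (log2 difference 1.41, limma adjusted p = 0.124). KRT14 was at 20587 and 23511 early and at 9603 and 8956 at mid anagen (log2 difference -1.25, limma adjusted p = 0.155). KLF4, a factor of epidermal barrier formation, was at 13.6 and 18.7 early and 24.0 and 25.0 at mid anagen, and GRHL1, a grainyhead factor, at 38.4 and 29.9 early and 57.7 and 46.7 at mid anagen. CDH1 itself, picked with its values in view, was at 157 and 219 at early and at 229 and 353 at mid anagen. ESRP1, a splicing factor of epithelial cells chosen the same way, was at 162 and 132 early and at 198 and 177 at mid anagen. For both, each mid value lay above the early value of the same sex. Keratins KRT18, KRT8 and KRT5, also named with their values in view, went the other way in both pairs without passing. Their log2 differences were -1.45, -1.22 and -1.05. With sex as a second term limma called KRT18 lower and CLDN1 and GRHL1 higher.

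**Figure D3:**
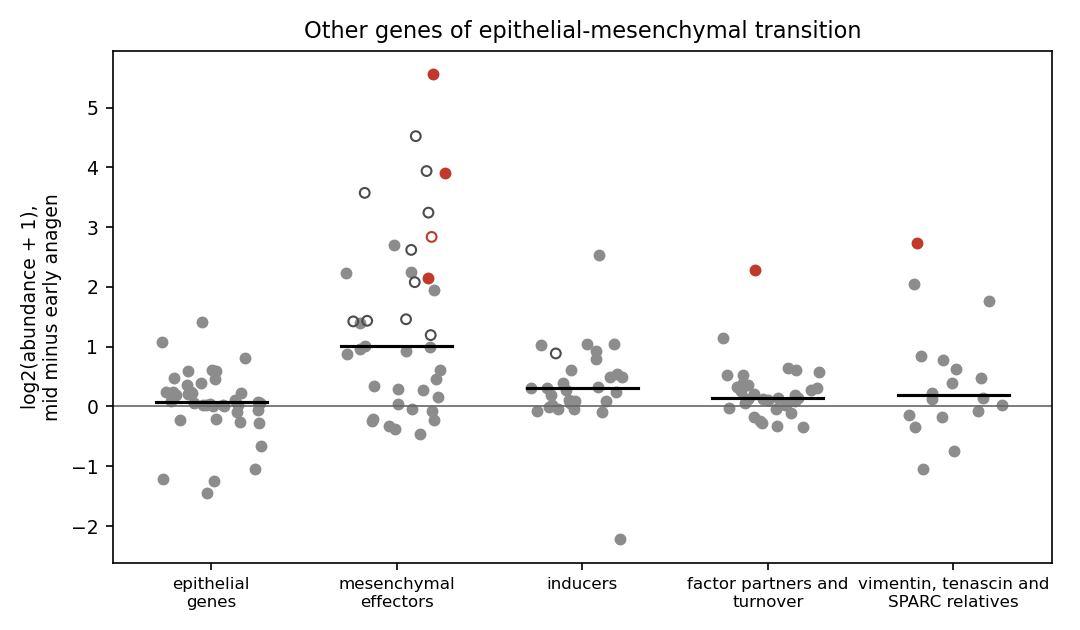
Mid minus early anagen difference in log2(abundance + 1) for tested genes of 5 lists, 1 point per gene, with a black line at the list median. Red points were called by limma over all tested genes, open points passed the filter only through mid anagen libraries, and the calls are the 4 mesenchymal effectors, ID4 and FSTL1.

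Among 30 signals and effectors that can induce the factors, 29 were tested and limma called 0. Of these 11 had an unadjusted p under 0.05, and the median was 0.31. Over all tested genes 0.304% were called and 27.9% had an unadjusted p under 0.05. The smallest p belonged to STAT3, TGFB2, WWTR1 and SOX4. TGFB2, a TGF-beta ligand, was at 1.20 and 0.143 at early anagen and at 5.44 and 12.2 at mid anagen (log2 difference 2.54, limma adjusted p = 0.0724). STAT3, the signal transducer of interleukin 6 type cytokines, was at 47.8 and 41.2 early and 86.2 and 84.3 at mid anagen (log2 difference 0.93, limma adjusted p = 0.0724). WWTR1, the Hippo pathway coactivator TAZ, was at 15.6 and 10.9 early and 26.8 and 29.1 at mid anagen, and SOX4 at 27.9 and 18.4 early and 48.4 and 47.0 at mid anagen. HMGA2, an architectural factor that can induce SNAI1, was at 689 and 680 early and at 260 and 81.5 at mid anagen without passing, and is named with its values in view. With sex as a second term limma called 8 of this list, 7 higher and HMGA2 lower, and the 4 genes with the smallest p were among them (adjusted p of 0.0216 to 0.0240). After rescaling to a common total it called 7, all higher.

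For the next 2 lists the shares over all tested genes are 0.224% called higher and 0.0801% called lower at mid anagen. Of 38 partners, corepressors and degradation factors of the SNAI, TWIST and ZEB proteins, 32 were tested. Of these 1 rose, 0 fell and 31 did not pass, with a median of 0.14. The gene that rose was ID4, an inhibitor that ties up the E proteins with which TWIST factors pair, from 1.72 and 1.12 to 11.3 and 10.03 (log2 difference 2.28, limma adjusted p = 0.0325). TCF4, one of those E proteins, picked with its values in view, was at 2.27 and 2.25 early and at 6.19 and 6.15 at mid anagen without passing. SNAI3, the remaining SNAI gene, was at or under 0.0318 in all libraries. Among 30 relatives and receptors of VIM, TNC and SPARC, 28 were found and 18 tested, 1 rose, 0 fell and 17 did not pass, with a median of 0.19. That gene was FSTL1, a secreted protein related to SPARC, which went from 2.25 and 4.03 to 21.7 and 31.1 (log2 difference 2.74, limma adjusted p = 0.0431). The other tenascin genes, TNR, TNXB and TNN, were not tested, with TNXB at 0.747 and 2.03 early and 0.712 and 0.923 at mid anagen. Limma called none of the genes in any of these lists without either early anagen library, nor any of all tested genes (2897 genes without the female and 1445 without the male library at an unadjusted p under 0.05).

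Most of the tested markers of dermal fibroblasts also had higher values in the mid anagen libraries, without passing. All 20 markers of the dermal fibroblast and papilla list were found, of which 10 are also among the mesenchymal effectors. Only 10 were tested, 9 of them kept through mid anagen values alone, and limma called 0. The 9 at an unadjusted p under 0.05 are those same 9, whose direction the filter fixed. All 20 markers, tested or not, summed to 40.5 and 26.6 at early anagen and to 234 and 87.9 at mid anagen. Without THY1, which was at 39.4 and 23.0 early and 16.4 and 28.8 at mid anagen, the sums were 1.04 and 3.56 early and 218 and 59.0 at mid anagen. COL1A1, the leading marker, was at 0.179 and 0.987 early and at 58.6 and 19.8 at mid anagen. FAP, RSPO3 and CRABP1 were at 0 in both early libraries and DCN in the early female one. Their part in the values of the 10 genes was not tested.

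Within mid anagen all 9 tested fibroblast markers other than THY1 were higher in the female than in the male library, by 2.34 to 6.21 times. THY1, which alone passed the filter through both phases, went the other way, at 16.4 in the female and 28.8 in the male library. ZEB2 at 4.89 times, TWIST1 at 3.42 times and PRRX1 at 2.26 times were also higher in the female library. At early anagen all of those 9 markers but LUM were instead higher in the male library, with values under 1. So was ZEB2, at 0 and 0.0104, while TWIST1 (0.116 and 0.0426) and PRRX1 (0.201 and 0.170) were higher in the female one. Within mid anagen SNAI2, SPARC and TNC were 1.38, 1.24 and 1.07 times as high in the female library. VIM, TWIST2, SNAI1 and ZEB1 were lower there, at 0.629, 0.510, 0.529 and 0.753 times the male value. The ratio of COL1A1 to VIM was 0.00872 and 0.0126 at early and 0.313 and 0.0664 at mid anagen. The 10 genes thus did not share a single order of the mid anagen libraries.

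**Figure D4:**
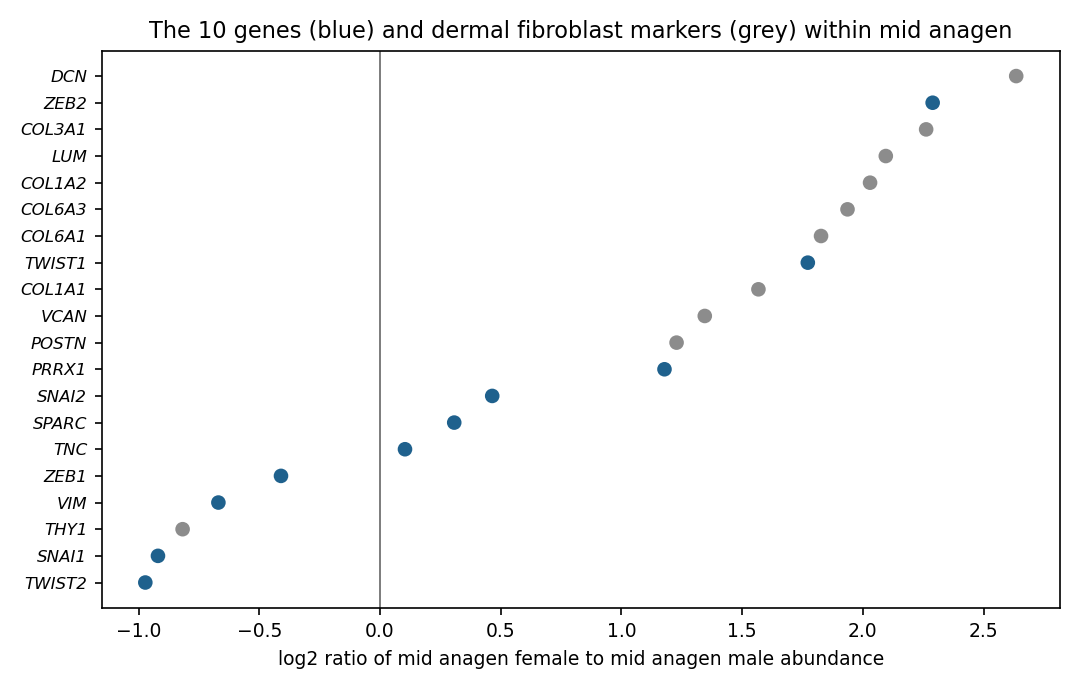
Log2 ratio of the mid anagen female to the mid anagen male abundance for the 10 genes (blue) and the 10 tested dermal fibroblast markers (grey), 1 point per gene. The grey points other than THY1 lie right of 0, between ratios of 2.34 and 6.21, while VIM, TWIST2, SNAI1 and ZEB1 lie left of it.

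Markers of other cell types that can hold VIM or SNAI2 were mixed, with defining genes at 0 and others clearly present. PTPRC, the pan-leukocyte marker, CDH5 of endothelium, DCT of melanocytes and CDH19 of Schwann cells were at 0 in every library. Of the same lists ERBB3 was at 22.7 and 20.1 early and 33.9 and 39.1 at mid anagen, S100B at 8.57 and 5.35 early and 21.2 and 21.9 at mid anagen, CD14 at 3.28 and 2.49 early and 12.6 and 8.52 at mid anagen, and ERG at 0.884 and 0.333 early and 4.19 and 5.24 at mid anagen. ERG passed the filter only through mid anagen, which fixed its direction. Other genes of these lists were present without being higher in both mid anagen libraries. MBP overlapped between phases, at 28.7 and 39.1 early and 31.7 and 39.9 at mid anagen. So did CD68 (3.90 and 3.56, then 4.41 and 2.40) and EDNRB (26.2 and 13.5, then 22.4 and 12.2). PMEL was lower at mid anagen, at 2.41 and 2.54 early and 2.40 and 2.08 there. All these genes are named with their values in view. The summed lists were at 32.0 and 20.6 early and 29.0 and 19.5 at mid anagen for melanocyte genes, and at 4.31 and 4.55 early and 11.8 and 11.4 at mid anagen for endothelial genes. Immune genes summed to 8.87 and 7.29 early and 18.7 and 12.4 at mid anagen, Schwann and nerve genes to 60.1 and 64.8 early and 87.0 and 101 at mid anagen, and smooth muscle and pericyte genes to 127 and 109 early and 123 and 165 at mid anagen. Keratinocyte markers summed to 43105 and 48740 early and 21207 and 22578 at mid anagen. Hair follicle stem cell markers summed to 591 and 639 early and 697 and 762 at mid anagen, with ITGA6 the largest, at 380 and 473 early and 366 and 390 at mid anagen. Of the 11 tested, 9 had both mid anagen values above both early ones, against 31.5% of all tested genes. Their median log2 difference was 0.80. Limma called 1 of them, LHX2, higher (adjusted p = 0.0431), against 0.224% of all tested genes. Endothelial, immune, nerve and stem cell sums were higher in both mid anagen libraries and the keratinocyte sum was lower, but single genes of a list differed. In the endothelial list ERG and EGFL7 (2.86 and 3.72 early, 7.10 and 5.16 at mid anagen) made up most of the mid anagen sum, whereas PECAM1 had lower values there, at 0.313 and 0.278 early and 0.0664 and 0.0777 at mid anagen, and of 9 keratinocyte genes 5 overlapped between phases. Melanocyte and smooth muscle sums overlapped. Of the melanocyte list 3 of 9 genes could be tested, of the endothelial and immune lists 2 of 10 each, of the nerve list 3 of 10 and of the smooth muscle list 5 of 10. Whether any of these cell types had a part in the results was not tested.

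For the 4 genes with a mean of at least 5, the 3 nearest of 9434 other named genes were found by Euclidean distance between centred log2 profiles over the 4 libraries. With 4 libraries this is a description only. For TNC they were EPHA4, an ephrin receptor, at a distance of 0.22, FGFR1, a fibroblast growth factor receptor, at 0.25 and LHX2, a stem cell transcription factor, at 0.29. For SPARC they were SESN3, a sestrin, at 0.19, INHBB, an activin subunit, at 0.42 and GPT2, a transaminase, at 0.43. SESN3, like SPARC, was lower in the early male than in the early female library, at 13.0 and 4.19, and was at 38.7 and 33.4 at mid anagen. VIM had no close neighbour, with FSTL1 at 0.92, IGFBP5, an IGF-binding protein, at 1.01 and CLDN1 at 1.24. For SNAI2 they were ADAL and SNAP23, each at 0.02, and TMEM179B at 0.04. Distances for a gene that varies little are small by construction.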

How the data were processed

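RNA from 4 libraries of cultured goat secondary hair follicle stem cells was measured, 2 at early and 2 at mid anagen, grouped by their titles. The authors deposited 1 signal value per gene and library, a length-normalised abundance with totals that differ between libraries; the tools were kallisto 0.46.1 and sleuth 0.30.0, per the submitters' processing notes. Build, annotation and the scaling between libraries: not given in the sources used here. The labels call the libraries biological replicates. With phase as the only term, p-values rest on the spread between 2 libraries per phase. Limma draws each gene's variance toward a trend over all tested genes. The SE and p-values are therefore not those of a gene's own libraries alone. With phase and sex as terms 1 residual degree of freedom is left, the change of the sex difference between phases. Log2(value + 1) was fitted in R 4.3.3 with limma 3.58.1 (intensity trend) over 12486 genes at 1 or more in at least 2 libraries, with Benjamini-Hochberg adjustment and a threshold of 0.05. With 2 against 2 libraries an exact two-sided permutation test cannot go below p = 0.333, so none was run. The fit was checked on simulated data. The 10 genes, the lists and the tests were chosen with earlier results of these data known. By rule, named genes are the 10, the called members of each list or else the 4 with the smallest p, and the 3 nearest profiles. Further genes and cell type markers were named outside this rule, many of them with their values in view. Older symbols were matched through the RefSeq table (20294 of 20326 identifiers found). Alternatives were pseudocounts, filters, scaling, trend, a replicate block and leaving out each library.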

Additional observations from a re-analysis of the deposited data

Results flagged for a closer look

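SNAI2 moved in opposite directions between early and mid anagen in the 2 sexes, by 0.21 on the log2 scale in the female pair and by -0.35 in the male pair. Each sex has 1 library per phase, so this difference between the sexes was not tested, and no explanation was weighed. It depends on the scaling: after rescaling to a common total both pairs were higher at mid anagen, from 61.8 to 82.2 in females and from 60.0 to 65.8 in males.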

How the results depend on the processing

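As reported, limma called 38 genes between phases and 18 between sexes. Without the filter on low values it called 0 in both (3843 and 1504 at an unadjusted p under 0.05). With a pseudocount of 0.1 the counts were 18 and 46, and rescaled to a common total 687 and 401, of which 87.0% of the phase calls were higher against 73.7% as reported. The sex count was 101 with a filter of 5, 48 with a pseudocount of 5, 9 without the intensity trend and 1 without phase as a term. Leaving out 1 library gave 0 to 733 phase calls, with 0 without either early library, and then each list's calls ran from 0 to 2 for epithelial genes, 0 to 18 for mesenchymal effectors, 0 to 2 for inducers, 0 to 2 for factor partners and 0 to 4 for relatives. Rescaled to a common total these lists had 1, 22, 7, 3 and 3 calls. Replicate numbers equal the sex, and the difference between sexes correlated across genes between phases (r = 0.29), but the numbers do not pair animals; with the replicate block 1782 genes were called, 51.5% of them higher, and the lists had 3, 23, 8, 3 and 6. Without a filter limma called 0 mesenchymal effectors, 0 factor partners and 0 relatives (26, 8 and 9 at an unadjusted p under 0.05), with a pseudocount of 0.1 also 0 of the last pair of lists (8 and 7), and without the trend 0 relatives (7). The causes of these shifts were not tested. The log2 differences of VIM, SPARC, TNC, TWIST2 and PRRX1, given without a test, kept their sign in every setting run. For each of them both mid anagen values lay above both early ones as deposited. Only the rescaling could therefore have turned a sign, and the genes were chosen with this contrast known. VIM ran from 1.58 to 3.46, SPARC from 1.21 to 2.85 and TNC from 1.43 to 2.06. SNAI2 changed sign and ran from -0.30 to 0.27. For SNAI1, TWIST1, ZEB1 and ZEB2 the only alternative run was leaving out the filter. That cannot change a log2 difference, so how theirs depend on the other settings is not known. Depth is unknown, so the precision of SNAI1, TWIST1, ZEB1 and ZEB2, with values mostly under 1, cannot be stated.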
